A study of Mus musculus with 20 samples.

Results

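The lipin genes Lpin1, Lpin2 and Lpin3 were examined in livers of male C57BL/6J mice kept for more than a year under low dose-rate gamma rays. Members were all probe sets to which the platform annotation gives a single lipin symbol. There were 7 such probe sets of 45101 on the array, for 3 of 18193 genes with a single symbol: 2 for Lpin1, 4 for Lpin2 and 1 for Lpin3. The family was chosen by a result of these same data, a lower signal of Lpin2 in high dose-rate livers than in control pools. Every value set against the pools is therefore given as a description and supports nothing.

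Mice entered the study at 8 weeks of age and received whole-body 137Cs gamma rays, and livers were taken when exposure ended. Experiment 1 lasted 485 days, with 1 control array for the combined RNA of 3 unirradiated mice and dose-rates of 0.042 (low), 0.858 (medium) and 16.6 mGy per day (high). Their cumulative doses were 20.6, 416 and 8030 mGy. Experiment 2 lasted 401 days, with a control array pooled from 6 unirradiated mice and dose-rates of 0.05, 1.00 and 20.0 mGy per day, for cumulative doses of 20, 401 and 8015 mGy. Each dose-rate had 3 mice per experiment on 1 array each, which gives 20 arrays. A pool has no spread of its own, so the spread between control mice is not known, and the number of arrays limits the precision.

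Lipins remove the phosphate from phosphatidate at the endoplasmic reticulum and give diacylglycerol, the precursor of triacylglycerol, phosphatidylcholine and phosphatidylethanolamine. Lipin 1, the enzyme lost in the fatty liver dystrophy mouse, also acts in the nucleus with PGC-1alpha and PPARalpha on fatty acid oxidation genes, and its gene is induced in liver by fasting and glucocorticoids. Lipin 2 is an abundant lipin of liver, and its loss in humans causes Majeed syndrome, an inflammatory disorder of bone and skin. Lipin 3 is the least studied of the family and is best known from the intestine and from fat cells.

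RefSeq windows of the GRCm38.p6 assembly were available for all 3 genes, 1 for Lpin1, 3 for Lpin2 and 2 for Lpin3. The 250 bases before an annotated start are shown for Lpin1 and for the first window of Lpin2, the 2 genes whose signal was lower than in the pools. Both are written 5′ to 3′ on the strand of the gene, with 3 searched motifs in capitals: the E-box CACGTG bound by clock activators, the nuclear receptor half-site AGGTCA and the glucocorticoid half-site TGTTCT, each on either strand.
Lpin1, chr12:16610967-16611216, minus strand: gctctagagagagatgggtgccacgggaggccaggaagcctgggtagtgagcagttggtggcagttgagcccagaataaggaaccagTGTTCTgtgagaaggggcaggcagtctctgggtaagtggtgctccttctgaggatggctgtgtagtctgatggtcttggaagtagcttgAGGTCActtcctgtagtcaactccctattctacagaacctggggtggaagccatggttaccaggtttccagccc
Lpin2, chr17:71183282-71183531, plus strand: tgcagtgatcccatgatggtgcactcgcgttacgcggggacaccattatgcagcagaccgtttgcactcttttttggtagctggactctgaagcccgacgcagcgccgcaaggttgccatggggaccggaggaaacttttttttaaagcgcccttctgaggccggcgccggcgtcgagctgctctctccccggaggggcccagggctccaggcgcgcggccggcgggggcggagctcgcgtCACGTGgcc
The Lpin2 window held CACGTG at position -9, counted from the start to the motif's first base, and it held neither half-site. The Lpin1 window held AGGTCA at -74 and TGTTCT at -163, and no CACGTG. It lies inside the annotated gene (chr12:16535669-16653903), so the region before the outermost Lpin1 start was not searched. Among the other windows, a further Lpin2 window held TGTTCT at -203, and a window of Lpin3, which was not lower than the pools throughout, held TGTTCT at -245 and CACGTG at 22, after the start. Of 32851 RefSeq windows of 300 bases (250 before and 50 after a start), 7.15% held CACGTG, 16.3% held AGGTCA and 19.0% held TGTTCT. The D-box TTATGTAA (0.938% of windows) and the cAMP response element TGACGTCA (1.79%) were in none of the 6 lipin windows. A match of letters shows neither binding nor a cause of any value below.

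Signals are MAS5 intensities on a linear scale, and levels are not compared between probe sets. The leading Lpin2 probe set, 1452836_at, averaged 4911 over the 20 arrays, above 96.1% of probe sets. The leading Lpin1 probe set, 1426516_a_at, averaged 3085 (94.2%). The single Lpin3 probe set averaged 83.38, below the median of all probe sets (84.7) that served as the filter on low signal, so 6 of the 7 entered the adjusted tests. Lpin3 values come from a fit without the filter.

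Lpin2 was lower in all 18 irradiated mice than in the pool of their experiment at 3 of its 4 probe sets. The mice of an experiment share a single pool array, so these are not 18 separate comparisons. The share of all probe sets with such a count is not given, here or for Lpin1 below. Group means at these 3 probe sets fell from low to medium to high dose-rate in experiment 2, but medium and high mice overlapped at each. In experiment 1 the medium group had the lowest mean at each, so that order did not recur. In experiment 2, 1452836_at had a signal of 7711.0 in the control pool, 6529.3, 6623.8 and 6843.4 in low, 5231.8, 5373.4 and 5773.3 in medium, and 4407.2, 6043.5 and 4782.2 in high dose-rate mice. All 3 low dose-rate mice lay above all medium and high dose-rate mice, and medium and high overlapped. The share of all probe sets with such a separation of groups is not given, so this and similar separations below are a description. In experiment 1, the signal was 6703.4 in the control pool, 3931.4, 3096.6 and 3910.9 in low, 3394.5, 3487.0 and 3569.4 in medium, and 3624.4, 3854.6 and 3323.0 in high dose-rate mice. The 3 irradiated groups of experiment 1 overlapped one another and all lay near the same level, well under the pool.

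Ordered by mean signal at 1452836_at, the experiment 2 pool (7711) came first, then the experiment 1 pool (6703) and the low dose-rate mice of experiment 2 (6666 ± 161, SD, n = 3), whose range included the experiment 1 pool. Medium (5460 ± 281) and high dose-rate mice of experiment 2 (5078 ± 857) came next and overlapped. Low (3646 ± 476), high (3601 ± 267) and medium dose-rate mice of experiment 1 (3484 ± 87.5) came last and overlapped one another, all below the lowest high dose-rate mouse of experiment 2. Signals of irradiated mice were 46.19% to 88.75% of the pool, with a median of 58.5%.

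The probe set 1452837_at gave the same picture for Lpin2 in outline. In experiment 2 its signal was 3809.6 in the control pool, 2521.8, 2823.2 and 2684.6 in low, 1810.8, 1985.8 and 2539.9 in medium, and 1808.8, 2532.1 and 1906.4 in high dose-rate mice. In experiment 1 it was 2859.1 in the control pool, 1688.5, 1527.6 and 1784.6 in low, 1405.3, 1420.5 and 1269.3 in medium, and 1732.4, 1710.0 and 1392.2 in high dose-rate mice. Every irradiated mouse lay below its pool, at 44.4% to 74.11% of it. Here the medium dose-rate mice of experiment 1 lay wholly below the low dose-rate mice, while in experiment 2 these groups overlapped by 1 mouse.

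At 1460290_at, irradiated mice ranged from 1427.2 to 2413.4 (median 1968.3) against 2483.3 in the pool of experiment 2, and from 741.58 to 1734.6 (median 1255.8) against 2409.1 in the pool of experiment 1. All 18 mice were below their pools, but the nearest, a low dose-rate mouse of experiment 2, reached 97.19% of it. In experiment 1, high dose-rate mice (1438.8, 1656.1 and 1261.7) lay wholly above medium ones (1255.8, 1078.3 and 1076.8). The low dose-rate mice there (1734.6, 741.58 and 941.94) spanned both groups. The log2 difference of high against low was 0.43 in experiment 1 and -0.32 in experiment 2.

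The dimmest Lpin2 probe set, 1446316_at, did not follow the others. All 9 irradiated mice of experiment 2 (110.72 to 336.82) were below their pool (372.88), and all 9 of experiment 1 (255.42 to 406.58) were above theirs (228.44). Within experiment 1, the high dose-rate mice (405.77, 296.82 and 406.58) lay wholly above the low dose-rate mice (266.93, 255.42 and 294.16). Its log2 difference for high against low was 0.33 ± 0.22 (SE, adjusted p = 0.636 by limma), so this order was not called. Which part of the Lpin2 transcript each probe set reads was not examined.

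**Figure D1:**
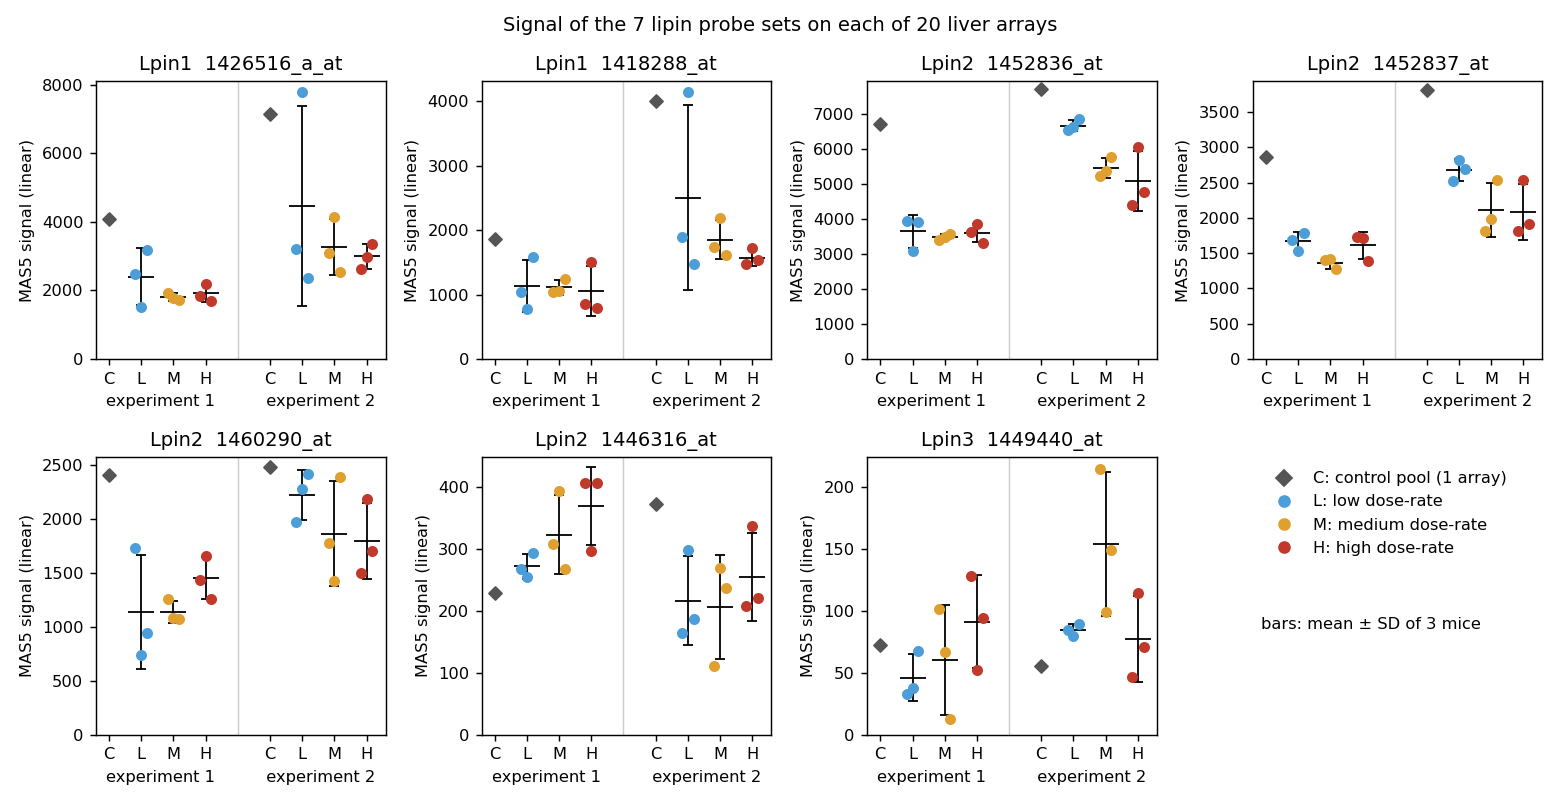
MAS5 signal (linear axis from 0) of each lipin probe set on each of the 20 arrays, by dose level within each experiment. Diamonds are control pools, dots are single mice, and bars are the mean ± SD of 3 mice. For Lpin2 1452836_at, each irradiated mouse lies below the pool of its own experiment, and in experiment 2 the low dose-rate mice (6529.3 to 6843.4) lie above the medium and high ones.

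Lpin1 was lower than the pool in 17 of 18 irradiated mice at both of its probe sets, with a wide spread between mice. At 1426516_a_at in experiment 2, the signal was 7141.5 in the control pool, 3213.5, 7788.8 and 2362.3 in low, 3088.7, 4145.5 and 2538.4 in medium, and 2636.4, 2977.1 and 3366.4 in high dose-rate mice. In experiment 1 it was 4075.3 in the control pool, 2485.7, 1523.7 and 3188.3 in low, 1924.8, 1784.6 and 1710.2 in medium, and 1850.8, 2202.0 and 1687.7 in high dose-rate mice. The exception was low dose-rate mouse 2 of experiment 2, at 109.1% of its pool.

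That mouse was also the exception at 1418288_at, with 4138.7 against 3995.5 in the pool of experiment 2. Irradiated mice ranged there from 1474.1 to 4138.7 (median 1720.4) in experiment 2, and from 783.8 to 1584.6 (median 1040.4) against a pool at 1869.8 in experiment 1. The median over all mice was 44.4% of the pool at 1426516_a_at and 46.76% at 1418288_at. The low dose-rate group had the widest spread of Lpin1 among the irradiated groups of each experiment, 4455 ± 2920 in experiment 2 and 2399 ± 836 in experiment 1 (SD, n = 3) at 1426516_a_at. Irradiated neighbours in the order of mean Lpin1 signal all overlapped, so no order of dose-rates is shown.

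Lpin3 had a signal below the filter and no common direction from the pools. Its signal was 55.547 in the control pool of experiment 2 and 46.46 to 214.06 (median 89.288) in the irradiated mice of experiment 2. It was 72.571 in the control pool of experiment 1 and 12.952 to 127.81 (median 66.351) in the irradiated mice of experiment 1. Only 7 of 18 mice were below their pool. The highest value, 214.06, and the others at the medium dose-rate of experiment 2 (98.868 and 148.68) lay above all low dose-rate mice of that experiment (84.624, 79.344 and 89.288). No detection calls were used, so these signals are not shown to be above background.

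**Figure D2:**
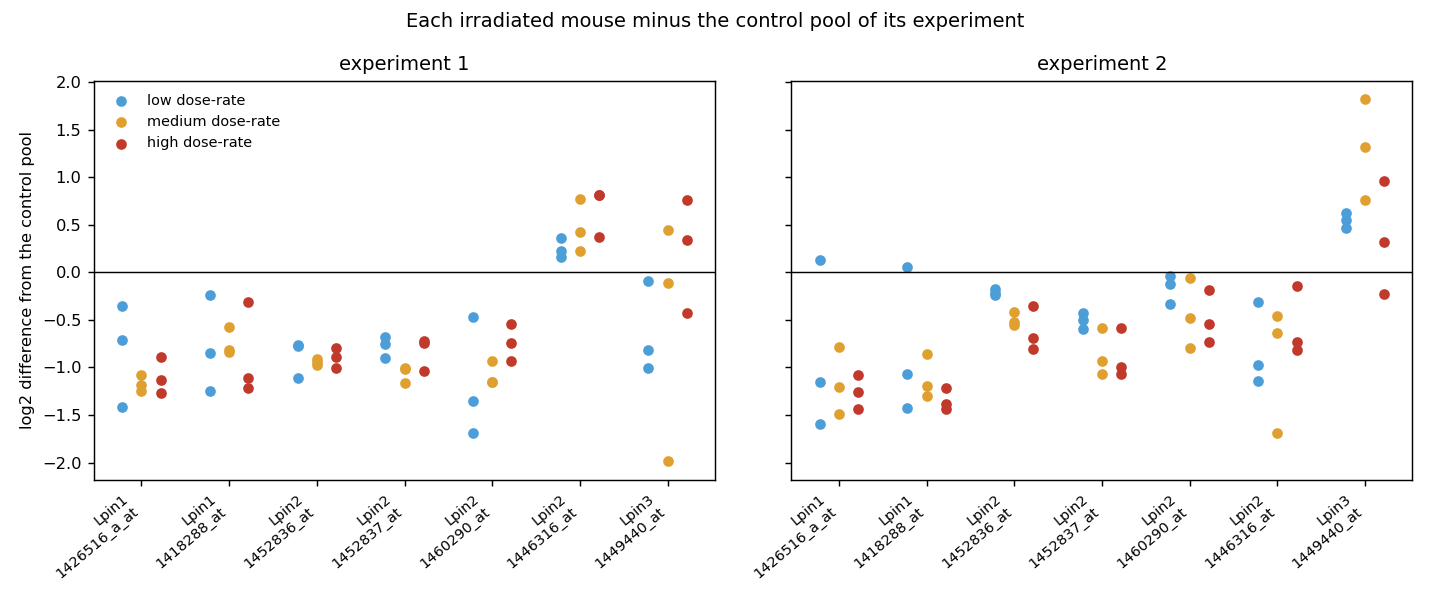
Log2 difference of each of the 18 irradiated mice from the control pool of its experiment, for the 7 probe sets (horizontal axis), with colour for dose-rate. Points of 1452836_at, 1452837_at and 1460290_at lie below 0 in both experiments, Lpin1 has 1 mouse above 0 at each probe set, and 1446316_at lies above 0 in experiment 1 and below 0 in experiment 2. The 9 mice of an experiment share 1 pool.

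In the fit of all arrays, the differences from control rest on the 2 pools and used the same contrast as the choice of the genes. For high against control, Lpin2 stood at -0.76 ± 0.14 for 1452836_at and -0.86 ± 0.14 for 1452837_at (log2, SE, adjusted p = 0.029 and 0.0177 by limma), both called, and -0.61 ± 0.26 for 1460290_at. Thus 2 of 6 lipin probe sets were called, where 0.0577% of all 22519 tested were called, and nothing is read from that count. Lpin1 stood at -1.18 ± 0.29 and -1.11 ± 0.29 (adjusted p = 0.222 and 0.239 by limma), larger estimates than those of Lpin2 with larger errors.

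Medium dose-rate mice differed from control by -0.72 ± 0.14 at 1452836_at (adjusted p = 0.0553, just outside the threshold of 0.05) and by -0.96 ± 0.14 at 1452837_at (adjusted p = 0.017, limma). That is 1 of 6 called, against 0.0355% of all probe sets. Low dose-rate mice differed by -0.55 ± 0.14 and -0.64 ± 0.14 at these probe sets (adjusted p = 0.5 and 0.381), with 0 of 6 called by limma and 0% of all. For low against control, 5 of the 6 had an unadjusted p under 0.05, as had 936 of 22519 probe sets. The 3 contrasts share the pools and are not independent of one another. The 2 pools also weigh unequally: without the experiment 1 pool the high against control value of 1452836_at was -0.52 (adjusted p = 0.846), and without the experiment 2 pool it was -0.99 (adjusted p = 0.00919). For high against control, 0 lipin probe sets were called without the experiment 1 pool and 1 without high dose-rate mouse 1 or mouse 3 of experiment 2. For medium against control, 0 were called without the experiment 1 pool. There 2 were called without the experiment 2 pool, low dose-rate mouse 2 of experiment 1 or high dose-rate mouse 1 of experiment 2.

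Between dose-rates, no lipin probe set passed the threshold. The choice of the genes used the high dose-rate arrays. High against low, high against medium and the interaction share those arrays with it, and only medium against low does not. For high against low, 0 of 6 were called by limma, with 0.0178% of all probe sets called. At an unadjusted p under 0.05 there were 2 of the 6, and 2316 of all 22519. These 2 were Lpin2 1452836_at, at -0.21 ± 0.095 (adjusted p = 0.458), and 1452837_at, at -0.21 ± 0.10 (adjusted p = 0.476). The first of these differences was -0.40 in experiment 2, with no overlap of the mice, and -0.01 in experiment 1. The exact permutation test within experiments gave p = 0.1 for 1452836_at and p = 0.105 for 1452837_at (two-sided, 400 relabelings, smallest possible p 0.005). Lpin1 stood at -0.33 ± 0.21 at 1426516_a_at and -0.32 ± 0.21 at 1418288_at, and its groups overlapped in each experiment. Without low dose-rate mouse 2 of experiment 2, the value of 1426516_a_at was -0.11.

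For medium against low, 0 of 6 passed and 0% of all probe sets were called, and 1 of 6, 1452837_at, had an unadjusted limma p under 0.05, as had 1768 of all 22519. That Lpin2 probe set stood at -0.32 ± 0.10 (adjusted p = 0.46), with -0.35 in experiment 2 and -0.29 in experiment 1. Its exact permutation p was 0.01, and that of 1452836_at, at -0.17 ± 0.095, was 0.045. These were the 2 of 21 such exact tests (7 probe sets, 3 contrasts) with p under 0.05, without adjustment for their number. Both read Lpin2 in the same mice, so they are not independent of each other. The share over all probe sets is not given for these exact tests. For high against medium, 0 of 6 passed, 0% of all were called, and 0 of 6 had an unadjusted p under 0.05 by limma (885 of all 22519), with estimates of -0.18 to 0.28.

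Whether the difference of high against low itself changed between the experiments was tested as an interaction. Of the 6 lipin probe sets 0 were called by limma, against 0.00444% of all, and 2 had an unadjusted p under 0.05, as had 1586 of all 22519. The interaction was -0.39 ± 0.16 at 1452836_at (adjusted p = 0.671) and -0.75 ± 0.34 at 1460290_at (adjusted p = 0.694). The difference of Lpin2 between high and low dose-rate in experiment 2 is therefore not shown to differ from that in experiment 1.

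Lpin1 and Lpin2 were higher in experiment 2 than in experiment 1. At the same level of dose, the log2 difference was 0.75 ± 0.16 and 0.83 ± 0.16 for the 2 Lpin1 probe sets (adjusted p = 0.000718 and 0.000256 by limma). It was 0.62 ± 0.074 for 1452836_at (adjusted p = 8.34e-07), 0.54 ± 0.078 for 1452837_at (adjusted p = 1.11e-05) and 0.61 ± 0.14 for 1460290_at (adjusted p = 0.00147). Among the irradiated mice, both 1452836_at and 1452837_at were higher in every mouse of experiment 2 than in any mouse of experiment 1 (exact permutation p = 0.00025, the smallest that 8000 relabelings allow). The share of all probe sets that separate so completely is not given, so this is not shown to be particular to Lpin2.

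The dim probe set 1446316_at stood at -0.41 ± 0.17, lower in experiment 2 (adjusted p = 0.0566, limma), and Lpin3 at 0.60 ± 0.32 (adjusted p = 0.213 without the filter). So 5 of 6 lipin probe sets were called, all higher, where 42.2% of all probe sets were called in either direction and 23.8% were called higher. A call in this comparison is common on these arrays. As a gauge of RNA integrity, 3′ over 5′ signal ratios were taken. That of Gapdh stood at 0.871 to 0.993 on arrays of experiment 2 and 0.69 to 0.769 on those of experiment 1. For Actb it was 2.25 to 2.61 and 1.85 to 2.15. Their part in the lipin differences was not tested. Duration, age at death and dose-rate also differed between the experiments and cannot be told apart from the experiment.

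**Figure D3:**
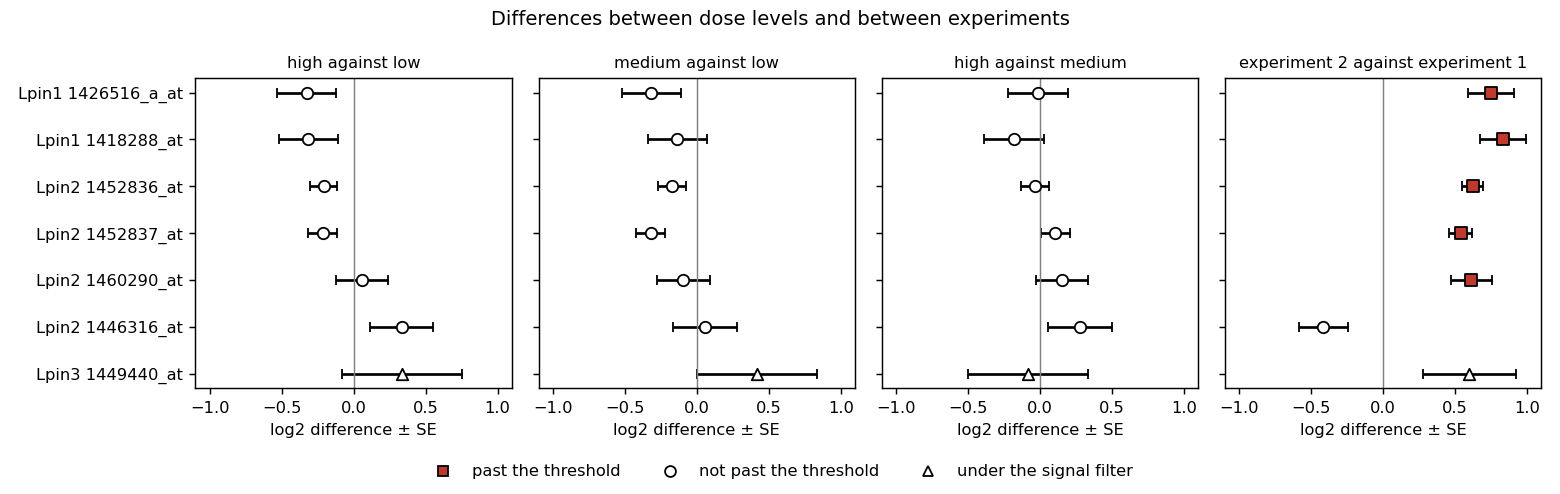
Log2 differences ± SE of the 7 lipin probe sets in the 3 comparisons between dose-rates and between the experiments, from the limma fit of all 20 arrays. Filled squares passed the threshold after adjustment over all probe sets, open circles did not, and the triangle is Lpin3, under the signal filter. Only the comparison of experiment 2 with experiment 1 holds filled squares, 5 of 6 tested.

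In bulk liver RNA, fewer cells of a type and less RNA per cell cannot be told apart. Summed signals of 9 hepatocyte markers were 433600 to 535800 in irradiated mice against 473300 in the pool of experiment 2, and 406400 to 523300 against 427500 in experiment 1. Both pools thus lay within the range of their mice. Lpin1 is also rich in fat and muscle. Of 6 adipocyte markers on the array 3 passed the filter, and Adipoq, Lep and Retn did not. The 6 summed to 1967 to 3978 against 3713 in experiment 2 and 2014 to 4399 against 2334 in experiment 1. For 7 skeletal muscle markers, of which 1 passed the filter, the sums were 199.5 to 457.3 against 373.8 and 249.3 to 451.1 against 292.1. These pools also lay within the range of their mice. Of the 11 cell type lists, the B cell list alone had a pool below all mice of its experiment in both experiments. Its 5 markers on the array, of which 3 passed the filter, had low sums. These were 393 to 1104 against 363 in experiment 2 and 354.1 to 667.8 against 288.2 in experiment 1. The part of B cells in the lipin values was not tested. With the experiments, 5 of 8 stellate cell markers and 4 of 8 endothelial markers were called higher in experiment 2, against 27.9% of all genes. These were the highest shares among the 11 cell type lists. Of hepatocyte markers 2 of 9 were called higher, and of Kupffer cell and macrophage markers 0 of 10. The part of these cell types in the lipin differences was not tested.

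Probe sets of the same lipin gene varied together from mouse to mouse, apart from 1446316_at. Over the 18 irradiated mice, after removal of each experiment's mean, the 2 Lpin1 probe sets correlated at r = 0.875 and rho = 0.744 (permutation, adjusted p = 0.0015 and 0.00495). Without the 2 mice farthest from the median r was 0.619, and it was 0.961 in experiment 2 and 0.717 in experiment 1. The Lpin2 probe sets 1452836_at and 1452837_at correlated at r = 0.828 and rho = 0.827 (permutation, adjusted p = 0.0015 and 0.0048), with r = 0.777 without the 2 farthest mice, 0.914 in experiment 2 and 0.601 in experiment 1. The third, 1460290_at, correlated with 1452836_at at r = 0.639 and rho = 0.659 (permutation, adjusted p = 0.0103 and 0.0173).

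These agreements are across mice on the same arrays, so probe sets share each array's RNA and scaling. With 1452837_at, 1460290_at had r = 0.562 and rho = 0.546 (permutation, adjusted p = 0.0494 and 0.0792), 0.873 in experiment 2 and 0.295 in experiment 1. The dim 1446316_at reached r of 0.0858 to 0.284 with the other Lpin2 probe sets and passed with none. Lpin1 and Lpin2 were not shown to vary together: their leading probe sets had r = 0.385 and rho = 0.276 (permutation, adjusted p = 0.345 and 0.741), 0.232 in experiment 2 and 0.844 in experiment 1. Without the 2 farthest mice that r was 0.112. In all, 4 of 15 pairs passed on r.

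**Figure D4:**
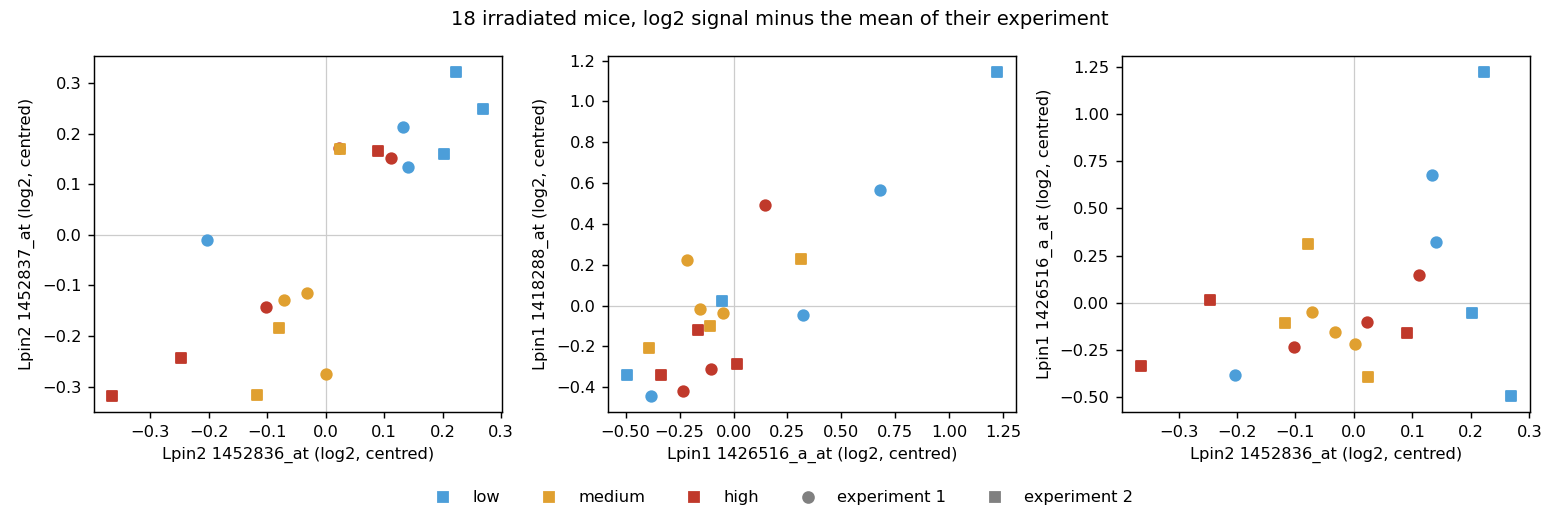
Log2 signal of 18 irradiated mice after subtraction of their experiment's mean, with colour for dose-rate and shape for experiment. The panels set Lpin2 1452837_at against 1452836_at (r = 0.828), Lpin1 1418288_at against 1426516_a_at (r = 0.875) and Lpin1 1426516_a_at against Lpin2 1452836_at (r = 0.385). In the Lpin1 panel the point farthest up and right is low dose-rate mouse 2 of experiment 2.

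Among 11216 other genes, those most like Lpin2 1452836_at over the same 18 mice were Brd1, a chromatin reader (r = 0.815, rho = 0.769), the glycosyltransferase gene Gcnt2 (r = 0.788), the splicing factor gene Rbm39 (r = 0.766), the nucleoporin gene Nup62 (r = 0.765) and Usp6nl (r = 0.751). The most opposite were the splicing factor gene Srsf2 (r = -0.772), the bile acid transporter gene Slc10a1 (r = -0.767) and Gm5617 (r = -0.752). Within experiments, Usp6nl had r = 0.938 in experiment 2 and 0.177 in experiment 1, and Gm5617 had -0.943 and -0.0586, so both likenesses rest on experiment 2. For Brd1 these were 0.881 and 0.632.

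Most like Lpin1 1426516_a_at were Lsm11 (r = 0.786), Ext1, a heparan sulfate polymerase (r = 0.747), Rasgef1b (r = 0.734), Alkbh4 (r = 0.715) and Pphln1 (r = 0.694). Most opposite were Spaca9 (r = -0.845), Aldh3b2 (r = -0.842) and the histamine receptor gene Hrh2 (r = -0.838), with mean signals of 91.14, 128.9 and 108.7, close to the filter. For these genes rho was 0.666 to 0.738 at the like end and -0.703 to -0.709 at the opposite end. Within experiments, Hrh2 had r = -0.968 in experiment 2 and -0.469 in experiment 1, while Rasgef1b had 0.688 and 0.89. Low dose-rate mouse 2 of experiment 2 stood 1.22 above its experiment's mean log2 value at 1426516_a_at, with the next mouse at 0.68. Its part in these r was not tested. The genes most like or opposite to Lpin1 and Lpin2 were picked as extremes of all genes, so their r are a description.

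Genes around the lipin step were examined in 11 lists, with 1 probe set per gene. Between dose-rates and in the interaction, 0 members of these lists passed by limma (at the gene level 0.00892% of 11217 genes passed in high against low). In high against low, the members of phosphatidate synthesis with the smallest p were Gpam, the mitochondrial glycerol phosphate acyltransferase, at 0.50 ± 0.19 (adjusted p = 0.351), and Gpd1 at 0.17 ± 0.095. Among genes of lipid synthesis from diacylglycerol these were Chkb (0.21 ± 0.11) and Pcyt2 (0.12 ± 0.076). In triacylglycerol breakdown and secretion they were the esterase gene Ces1d (0.28 ± 0.093) and Pnpla3 (1.21 ± 0.43).

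The inducers and partners of lipin 1 gave Srebf1, the lipogenic transcription factor gene, at 0.53 ± 0.20, and Hnf4a at -0.43 ± 0.16 (adjusted p = 0.321 and 0.351, limma) in high against low. Of glucocorticoid-induced genes, Klf9 was at -0.49 ± 0.11 and Zbtb16 at -1.20 ± 0.31 (adjusted p = 0.115 and 0.141, limma), with a list median of -0.34 against 0 over all genes. The fasting-induced genes Angptl4, a lipoprotein lipase inhibitor, and Igfbp1 stood at -0.98 ± 0.21 and 0.99 ± 0.24 (adjusted p = 0.103 and 0.136, limma), in opposite directions.

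Against control, high dose-rate mice had 0 called members among the 8 lists of lipid enzymes, lipin modifiers and partners, where 0.0624% of all genes were called. In the fasting list Angptl4 fell by 1.61 ± 0.30 (adjusted p = 0.0348, limma), and in the clock list Usp2, a deubiquitinase driven by the clock, fell by 2.26 ± 0.35 (adjusted p = 0.0111). Usp2 also fell in medium dose-rate mice, by 2.16 ± 0.35 (adjusted p = 0.017, limma). The clock list had a median of -0.36 in high, -0.34 in medium and -0.32 in low against control. That of the glucocorticoid list was -0.42, -0.24 and -0.02. Over all genes these medians were 0, 0.01 and 0. The contrasts with control use the same pools as the lipin values above. In high against low, which compares irradiated mice, the clock median was -0.1. Over the 18 irradiated mice, without the pools, Usp2 had r = 0.673 with Lpin2 1452836_at, which ranked 24 among 11216 genes. Usp2 had the highest r of all tested members of the pathway lists, so this value is a description. The other members of the clock list ran from r = 0.602 (Nr1d2) to -0.323 (Hlf).

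In experiment 2 against experiment 1, 42.5% of all genes were called, 27.9% higher and 14.5% lower, and calls among the lipin neighbours are to be read against these shares. Of 11 phosphatidate synthesis genes, 6 rose and 1 fell, with Gpd1, which makes glycerol 3-phosphate, up by 0.76 ± 0.074 and Agpat1 down, at -0.60 ± 0.15. Of 12 genes of lipid synthesis from diacylglycerol, 5 rose and 0 fell. Among them were Pcyt2, of phosphatidylethanolamine synthesis (0.95 ± 0.059), and Dgat2, of triacylglycerol synthesis (0.49 ± 0.070). The CDP-diacylglycerol branch, which competes for phosphatidate, had 4 of 6 higher, with Pgs1 at 0.73 ± 0.14.

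Diacylglycerol kinases, which run the lipin reaction in reverse, had 2 of 6 higher, with Dgkz at 0.55 ± 0.067. In triacylglycerol breakdown and secretion 3 of 12 rose, with the lipase gene Pnpla2 at 0.82 ± 0.070. Of 8 lipin modifiers 4 rose and 1 fell, with Ctdnep1, the catalytic subunit of the lipin phosphatase, at 0.69 ± 0.070 and the kinase gene Csnk1a1 at -0.63 ± 0.066. Of 11 partners and inducers 5 rose and 1 fell, with Cebpa at 0.83 ± 0.052. Of 12 glucocorticoid-induced genes 3 rose and 2 fell, of 8 fasting-induced genes 3 rose, and of 15 clock genes 6 rose and 2 fell, with Per1 at 1.59 ± 0.29, Angptl4 at 0.61 ± 0.16 and Nr1d1 at 0.95 ± 0.14. None of the 5 tested membrane lipid phosphate phosphatases passed by limma, and 2 had an unadjusted p under 0.05. List medians ran from -0.05 (glucocorticoid-induced genes) to 0.32 (CDP-diacylglycerol branch), against 0.08 over all genes.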

How the data were processed

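Liver RNA was measured on 20 Affymetrix arrays. The authors deposited 1 linear intensity per probe set and array, computed with MAS5 according to the submitters' processing notes, which name no version. The values show that arrays had been scaled to a mean of 500.0 after 2% trimming at each end. Probe sets take gene symbols from the platform annotation, and promoter sequences are RefSeq's. Members and lists were chosen with earlier results of these data known.

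Signals were transformed as log2(signal + 7.12), the 10th percentile of all signals, which understates changes of low signals. Of 45037 probe sets that are not array controls, 22519 whose mean signal reached the median of such means (84.7) were fitted with limma 3.58.1 in R 4.3.3 (lmFit, eBayes with a variance trend, terms for dose level and experiment, 15 residual degrees of freedom). The interaction used 8 groups. Adjustment was by Benjamini-Hochberg over all 22519, with a threshold of 0.05, and values printed are log2 differences with their standard errors. Limma p-values rest on a residual spread over all arrays. It holds the spread between mice of 1 array each and, outside the interaction, any disagreement of the experiments on a dose level. Pools were given this same spread, so p-values against control do not measure the spread between control mice. Single probe sets were compared by exact permutation within experiments, and likeness by 100000 permutations within experiments, adjusted over 15 pairs. The procedure was tested on simulated data.

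All lipin probe sets were named. A gene's leading probe set is the brightest one not ending in _s_at or _x_at. Likeness named the 5 highest and 3 lowest genes. Each of the 11 pathway lists named up to 4 called members per comparison, or up to 2 with the smallest p, and 192 of 207 list symbols (cell type lists included) were on the array. Alternatives were the pseudocount, filter, normalization, fit terms, weights, single experiments, a replicate block and leaving out each array.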

Additional observations from a re-analysis of the deposited data

Results flagged for a closer look

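Each dose-rate had 6 mice over both experiments, and 21 such groups (7 probe sets, 3 dose-rates) were searched, after removal of the experiment's mean, for a mouse that stands apart by Dixon's ratio of its gap to the whole range (critical value 0.625). Chance flags about 1 in 20 groups, and 3 of 21 were flagged. Low dose-rate mouse 2 of experiment 1 was lowest at Lpin2 1452836_at, with a signal of 3097 and a ratio of 0.711. High dose-rate mouse 2 of experiment 1 was highest at Lpin1 1418288_at, with 1505 and 0.672. Low dose-rate mouse 2 of experiment 2 was highest at Lpin2 1446316_at, with 298.6 and 0.67.

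In 4 cases every mouse of a dose-rate moved one way from the pool in experiment 2 and the opposite way in experiment 1. Lpin2 1446316_at lay below the pool in experiment 2 and above it in experiment 1 at all 3 dose-rates, and the difference from the pool was lower in experiment 2 by the log2 values -1.05 (low), -1.4 (medium) and -1.23 (high). Lpin3 1449440_at at the low dose-rate lay above the pool in experiment 2 and below it in experiment 1, a difference of 1.18. These differences were not tested, each experiment has 1 pool, and both probe sets are dim.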

How the results depend on the processing

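Settings tried were other pseudocounts, no filter or the top 30% of probe sets, quantile normalization or median-centred arrays, 1 leading probe set per gene, no experiment term, no variance trend, the 2 levels compared alone, irradiated mice alone, each experiment alone, arrays weighted by their number of mice, and each array left out. The counts of 0 called lipin probe sets between dose-rates and in the interaction were 0 under every setting run. For experiment 2 against experiment 1 (5 called), 1 probe set per gene gave 2 of 2 tested, and leaving out an array gave 5 to 6. For high against control (2 called), 1 probe set per gene, median-centred arrays and the 2 levels alone gave 1. No experiment term, no variance trend and either experiment alone gave 0, weighting gave 4, and leaving out an array gave 0 to 3. For medium against control (1 called), the top 30% and quantile normalization gave 2 and the 2 levels alone gave 3. There, 1 probe set per gene, no experiment term and either experiment alone gave 0, weighting gave 5, and leaving out an array gave 0 to 2. For low against control (0 called), weighting gave 3 and leaving out an array gave 0. Of exact tests between levels, 1 instead of 2 had p under 0.05 with median-centred arrays, a setting chosen after seeing the data. Of probe set pairs that correlated (4 in all mice), experiment 1 alone gave 1, the leading probe sets of Lpin1 and Lpin2, which is not among those 4. The high against medium difference of Lpin1 1426516_a_at, -0.01, turned to 0.08 in experiment 1 alone, and without each array ran from -0.07 to 0.08, above 0 without any 1 of 4 mice (0.00, 0.01, 0.04 and 0.08). That of Lpin2 1452836_at, -0.04, turned to 0.05 in experiment 1 alone and to 0.02 without high dose-rate mouse 1 of experiment 2, in a range of -0.08 to 0.02 without each array. The interaction of Lpin1 1426516_a_at, -0.12, turned to 0.18 without low dose-rate mouse 2 of experiment 1 and to 0.38 without low dose-rate mouse 2 of experiment 2, in a range of -0.48 to 0.38. Apart from settings that use fewer samples or probe sets, the cause was not tested.

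Deviations of mice of equal number in different groups correlated at -0.15 to 0.318 (mean 0.0716, 5 of 18 pairs over 0.1), against -0.21 to 0.189 for other pairs (mean -0.0358, 5 of 36 over 0.1). Since not every pair of equal number was over 0.1, the numbers were not taken to pair the mice, although all 3 pairs of the mice numbered 1 in experiment 1 were over it (0.163 to 0.318). A replicate block over irradiated mice left 0 called between dose-rates, with Lpin2 1452836_at at -0.21 in high against low (adjusted p = 0.39, limma).

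Contrasts with control rest on 1 array per experiment, and the spread between control mice is not known. Lpin3 and 1446316_at are dim, and MAS5 signals without detection calls do not separate low expression from background. The experiment effect coincides with duration, age at death and the 3′ over 5′ signal ratios.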

Other observations

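The 106 tested members of the pathway lists were also ordered by their likeness to the lipins over the 18 irradiated mice, with each experiment's mean removed. By r, closest to Lpin1 1426516_a_at was Abhd5, the coactivator of the lipase ATGL (r = 0.678, rho = 0.424), which ranked 9 among 11216 genes. By rho, Bhlhe40 (0.531) and Kat5 (0.472) were closer. By r, closest to Lpin2 1452836_at were the clock genes Usp2 and Nr1d2 (r = 0.602) and then Abhd5 (r = 0.596, rho = 0.579). Abhd5 had r = 0.604 in experiment 2 and 0.572 in experiment 1, whereas Nr1d2 had 0.878 and -0.22. At the other end stood Ppargc1a, a coactivator that partners lipin 1, with r = -0.555 to Lpin2 (-0.64 in experiment 2 and -0.217 in experiment 1). These genes were picked as extremes, and all values share arrays and scaling, so they are a description.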
